A study of Mus musculus with 17 samples.

Results

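The genes described here encode 9 proteins of the focal adhesion plaque, taken by name from the 20572 genes of the count tables: Tln1, Vcl, Flna, Actn1, Actn4, Zyx, Lpp, Pxn and Ptk2. Their rows were read in the RNA and ribosome footprint tables, and their regions were read in the list of 3' UTR sites bound by Musashi-2 (Msi2), an RNA-binding protein. The cells were keratinocytes of newborn C57BL/6 mice that became immortal spontaneously in culture, passaged on mitomycin-C treated NIH-3T3 J2 cells (mouse fibroblast feeders) for the first 3 passages and on uncoated dishes afterwards. For RNA and footprints, control cells carried a lentiviral scrambled shRNA and knockdown cells a lentiviral Msi2 shRNA, and all of them were selected with 2 ug/ml puromycin. Each group had 3 libraries of polyadenylated RNA and 3 of footprints, the RNA pieces that ribosomes shield from nuclease, taken from cells treated with cycloheximide, which halts ribosomes. The 5 HITS-CLIP libraries came from cells exposed 2 times to 200 mJ/cm2 UVC, which links Msi2 to RNA before recovery with an antibody; per the labels, they carried RNase undiluted (1 library), diluted 20-fold (2 libraries), 50-fold and 75-fold, and no control library was analysed here. Nothing in the labels ties libraries to separate cultures, so a p-value here reflects variation among libraries that could be purely technical.

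Focal adhesions are the sites where integrins, the receptors for extracellular matrix, are tied to the actin cytoskeleton. Talin (Tln1) binds the integrin tail and actin, and vinculin (Vcl) strengthens that link under force. Filamin A (Flna) and the alpha-actinins (Actn1, Actn4) cross-link actin filaments, zyxin (Zyx) and its relative Lpp are LIM domain proteins that bring actin regulators to the plaque, and paxillin (Pxn) is the adaptor on which focal adhesion kinase (Ptk2) signals. In keratinocytes these structures form at the migrating edge of a healing wound. Msi2 binds RNA mostly in 3' UTRs and acts on stability and translation.

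Gene counts summed to between 9221566 and 26785876 in the RNA libraries and between 512256 and 2959625 in the footprint libraries. Msi2 footprints fell from 17.4 ± 0.815 to 3.22 ± 2.80 CPM (reads scaled to a common library size with TMM factors; SD, n = 3 each; log2 fold change -2.08 ± 0.41 SE, adjusted p = 0.000285), with 0 reads in knockdown replicate 2. Msi2 RNA stood at 7.32 ± 1.30 and 6.02 ± 0.796 CPM (-0.29 ± 0.21, adjusted p = 0.283), with overlapping groups. All 10 keratinocyte markers were detected in both assays, and their summed RNA was 15299 to 18573 CPM in control and 12701 to 14096 CPM in knockdown libraries. Most of that sum was Krt14 (means of 7270 and 5538 CPM) and Krt5 (7045 and 4573 CPM). Singly, 3 of the 10 rose in RNA at an adjusted p under 0.05 (Itga6, Itgb4 and Col17a1) and 4 fell (Krt14, Krt5, Cdh1 and Perp). Of 12 fibroblast markers, which the feeder cells could carry, 7 had no RNA read at all, the collagens Col1a2 and Col3a1 among them, and the list summed to 4.62 to 7.86 CPM in control and 9.21 to 10.6 CPM in knockdown libraries. In bulk samples such as these, fewer cells of a kind and less RNA per cell cannot be told apart. The summed RNA of the other marker lists came to 1.71 to 2.31 and 2.08 to 3.77 CPM (7 melanocyte genes, 3 without a read), 16.0 to 18.6 and 8.60 to 13.6 CPM (8 immune genes, 4 without a read) and 1.49 to 2.57 and 3.36 to 5.30 CPM (8 endothelial and muscle genes, 2 without a read) in control and knockdown libraries. The part of these small differences in the results was not tested. Cd68 made up most of the immune sum (means of 16.8 and 9.86 CPM), and Twist2 was the highest fibroblast gene (4.91 and 7.22 CPM).

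The promoter windows of the members were searched for short letters that factors of the actin and adhesion programme are known to bind, since several members moved together. RefSeq (GRCm38.p6) gives a window of 250 bases before to 50 after the start for 7 of the 9 members, with Lpp having 2 starts; Pxn and Ptk2 have no entry in that table. The searched letters were the CArG box, which serum response factor (SRF) binds, GGAATG for the TEAD factors and TGACTCA for AP-1, on both strands. Matches are shown with 30 bases each, 5' to 3' on the gene's strand, the motif in capitals:
Vcl, CArG box, chr14:20929161-20929190, plus strand: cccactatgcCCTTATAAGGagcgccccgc
Vcl, TEAD, chr14:20929243-20929272, plus strand: gcccctcccttgGGAATGggggcggggcgg
Flna, TEAD, chrX:74246663-74246692, minus strand: ggcgttgtggggCATTCCaacgggaggggc
Actn4, TEAD, chr7:28962531-28962560, minus strand: tgaatgggaacaCATTCCaccccgaaacag
Lpp, TEAD, chr16:24721661-24721690, plus strand: ctggaagtatgtGGAATGgagaaggaagtg
Zyx, AP-1, chr6:42349696-42349725, plus strand: agtgcggacagTGAGTCAgttctccagcac
CATTCC and TGAGTCA are the searched letters read from the other strand. The windows with matches in Flna (74246485 to 74246784), Lpp (24721605 to 24721904) and Zyx (42349578 to 42349877) lie wholly inside the annotated gene spans. Those spans begin at 74249854 for Flna (minus strand), 24393350 for Lpp and 42349511 for Zyx. These windows thus belong to starts within the gene, not to its outermost start. A CArG box is present in 1.63% of all 32851 promoter windows of that length, the TEAD letters in 14.7% and the AP-1 letters in 5.20%. The CArG box of Vcl begins 227 bases before the start and its TEAD match 143 bases before. In the windows of Tln1 and Actn1 none of the 3 motifs was found. A match describes letters only, and no binding of these factors was measured here.

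The RNA of each plaque gene was first set against its control level, to ask how it responded when Msi2 was lowered. Of the 9 members, 6 rose in the knockdown (Flna, Tln1, Vcl, Actn1, Actn4 and Lpp) and none fell at an adjusted p under 0.05, whereas 22.0% of the 11117 tested genes rose, 21.7% fell and 43.8% changed in either direction. At an unadjusted p under 0.05 the count was 7 of 9, beside 51.4% of all tested genes. Among genes at least as abundant as the lowest member other than Lpp, 21.0% rose. That share sets Lpp aside, so only Flna, Tln1, Vcl, Actn1 and Actn4 are the called members to set beside it. Lpp rested on 2 to 47 reads per library and reached the filter on low counts in only 2 control libraries, but in 3 knockdown libraries. The counts of 6, 7 and 9 members given here include Lpp, whose part in them carries no weight for that reason. The median log2 fold change of the members was 0.44, beside 0.0040 over all tested genes. All 9 members had higher RNA in each knockdown library than in any control library, a separation in this direction that 26.8% of tested genes showed (52.9% in either direction). The plot of CPM by library gives these values.

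**Figure D1:**
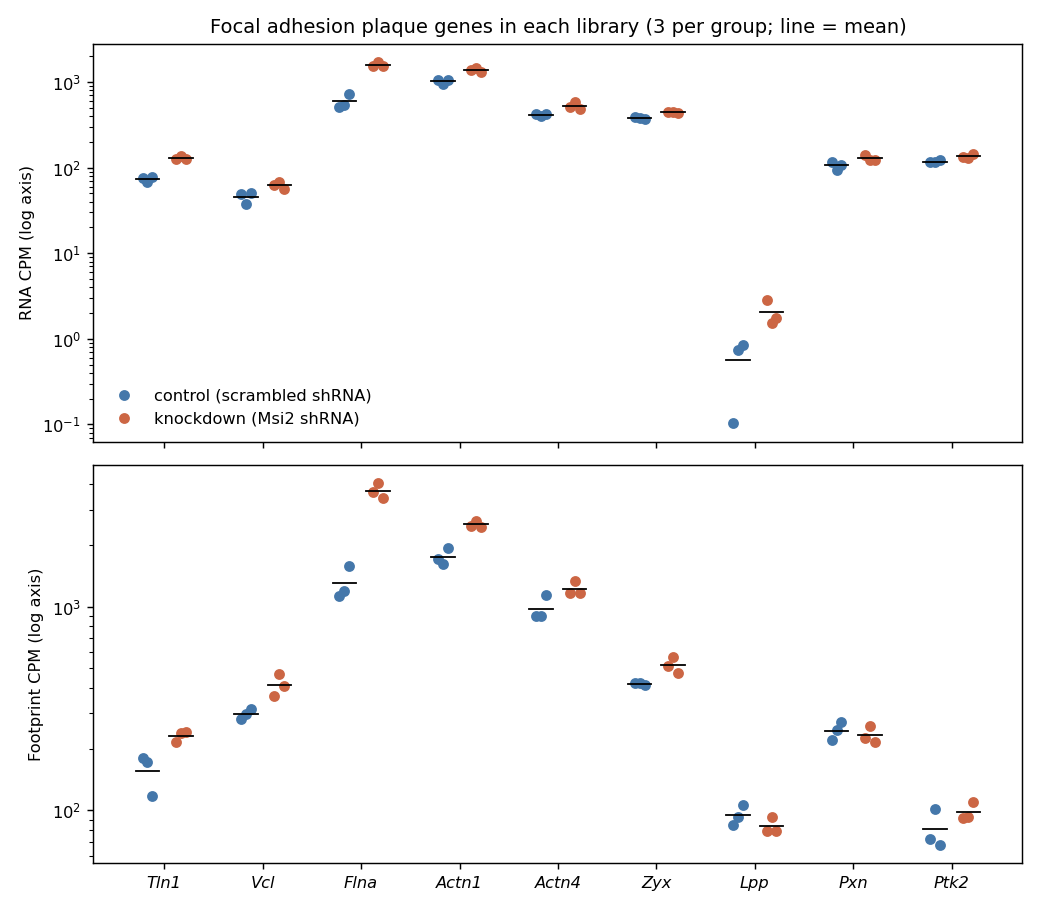
RNA (top) and footprint (bottom) CPM of the 9 members on log axes, with 1 point per library, 3 control (scrambled shRNA) and 3 knockdown (Msi2 shRNA) libraries per assay, and a line at each mean. Flna stands between 515 and 730 RNA CPM in control and between 1537 and 1713 in knockdown libraries, and Lpp is near 1 CPM in RNA but near 90 in footprints. CPM are not per length, so heights are not comparable between genes.

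Filamin A changed most among the members whose RNA was well covered. Flna RNA was 515, 533 and 730 CPM in the control libraries and 1557, 1713 and 1537 CPM in the knockdown libraries. The groups lie far apart, with the third control library the highest of its group, and the means were 593 ± 119 and 1602 ± 96.4 CPM (SD, n = 3), a ratio of 2.70. The log2 fold change was 1.43 ± 0.15 (SE; adjusted p = 1.86e-06; every adjusted p comes from the quasi-likelihood test of edgeR, adjusted by Benjamini-Hochberg over all genes tested). The gene lies on chromosome X, 74223461 to 74249854 (mm10).

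Talin 1, the protein that switches integrins on, came next. Tln1 RNA (chromosome 4, 43531513 to 43562583) stood at 76.4, 67.7 and 78.1 CPM in control and 126, 138 and 127 CPM in knockdown libraries, with means of 74.1 ± 5.58 and 130 ± 6.38 CPM. The spread within each group was small beside the gap between them (log2 fold change 0.82 ± 0.11, adjusted p = 2.40e-05).

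Its partner vinculin rose less. Vcl RNA (chromosome 14, 20929383 to 21033676) was 48.7, 37.3 and 51.0 CPM in control and 63.3, 68.7 and 56.5 CPM in knockdown libraries, with means of 45.7 ± 7.35 and 62.9 ± 6.11 CPM (log2 fold change 0.46 ± 0.13, adjusted p = 0.00926). The highest control and the lowest knockdown library lie close together.

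Both alpha-actinins, non-muscle cross-linkers of actin, rose modestly. Actn1 RNA (chromosome 12, 80167542 to 80260420) was 1068, 946 and 1043 CPM in control and 1370, 1462 and 1306 CPM in knockdown libraries (means 1019 ± 64.3 and 1379 ± 78.3 CPM; 0.44 ± 0.12, adjusted p = 0.00865). Actn4 RNA (chromosome 7, 28893248 to 28962351) was 421, 403 and 427 CPM in control and 515, 581 and 481 CPM in knockdown libraries (means 417 ± 12.3 and 526 ± 50.9 CPM; 0.33 ± 0.12, adjusted p = 0.0317). The call of Actn4 had the highest p of the 6. Its adjusted p was 0.0995 when control replicate 1 was left out, and 0.0920, 0.161 and 0.0556 when knockdown replicate 1, 2 or 3 was.

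Among the LIM proteins and the kinase, the values lay above control by less. Zyx RNA (chromosome 6, 42349511 to 42360213) was 391, 378 and 369 CPM in control and 452, 444 and 441 CPM in knockdown libraries (0.23 ± 0.11, adjusted p = 0.104). Pxn RNA (chromosome 5, 115491970 to 115555987) was 117, 93.4 and 109 CPM in control and 141, 124 and 121 CPM in knockdown libraries (0.27 ± 0.12, adjusted p = 0.0627). Ptk2 RNA (chromosome 15, 73205102 to 73423820) was 117, 115 and 122 CPM in control and 134, 129 and 144 CPM in knockdown libraries (0.21 ± 0.10, adjusted p = 0.120). In these 3 genes the groups did not overlap although the test, which shares its spread across all genes, was not passed. With upper-quartile factors in place of TMM, Zyx (adjusted p = 0.0489) and Pxn (0.0345) passed, and Pxn also passed without control replicate 3 (0.0434).

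Lpp, a zyxin relative also found at cell-cell junctions, gave so few RNA reads that its level is poorly measured and its counts may be incomplete. The counts were 2, 17 and 10 in control and 27, 19 and 47 in knockdown libraries, or 0.103, 0.742 and 0.856 CPM against 2.81, 1.52 and 1.76 CPM. The knockdown libraries are all higher, control replicate 1 is far below the other control libraries, and the log2 fold change of 1.85 ± 0.52 (adjusted p = 0.00866) carries the widest error of the 9. Lpp reached the filter on low counts, 0.625 CPM, in 3 knockdown and 2 control libraries, and its call ended without knockdown replicate 1 (adjusted p = 0.0519). The gene spans chromosome 16, 24393350 to 24992578, the longest span of the 9 (599229 bases).

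Several of these RNA values were sensitive to a correction for gene span, the length of the gene in the genome. When each library's trend with genomic span was removed, Vcl (0.25, adjusted p = 0.0825), Actn1 (0.23, adjusted p = 0.0707) and Actn4 (0.16, adjusted p = 0.229) no longer passed, Zyx did (0.28, adjusted p = 0.0390), and Ptk2 turned to -0.05 (adjusted p = 0.727). Flna, Tln1 and Lpp kept their calls, so 4 of 9 rose under that setting.

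Ribosome footprints were compared to ask which of these differences were also seen in the RNA that ribosomes were reading. Of the 9 members, 4 rose (Flna, Actn1, Vcl and Tln1) and none fell, whereas 8.76% of 8969 tested genes rose, 7.38% fell and 16.1% changed in either direction. At an unadjusted p under 0.05 the count was 6, Actn4 and Zyx being the added ones, beside 28.2% of all tested genes. Of the 2319 genes with footprints at least as abundant as the lowest member, 16.1% rose. The median log2 fold change of the members was 0.32, beside -0.01 over all tested genes. Knockdown libraries lay above all control libraries for 6 members, a separation in this direction that 15.9% of tested genes showed (31.4% in either direction), and the groups overlapped for Pxn, Ptk2 and Lpp.

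Flna footprints were 1131, 1192 and 1590 CPM in control and 3666, 4027 and 3427 CPM in knockdown libraries. The means of 1304 ± 249 and 3707 ± 302 CPM (SD, n = 3) differ by a ratio of 2.84 (log2 fold change 1.51 ± 0.14, adjusted p = 7.56e-11). As in RNA, the third control library is the highest of its group. Filamin A accounted for 22.6 to 26.7% of the footprint counts of the 9 members in control and 39.9 to 41.6% in knockdown libraries. In RNA its part was 18.7 to 24.9% and 35.7 to 36.7%. The 9 genes together took 0.543 ± 0.0511% of all footprint counts in control and 0.878 ± 0.0594% in knockdown libraries, and 0.270 ± 0.0332% and 0.452 ± 0.0308% of RNA counts.

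Footprints on the alpha-actinins also stood higher in the knockdown. Actn1 had 1712, 1628 and 1948 CPM in control and 2496, 2646 and 2461 CPM in knockdown libraries (means 1763 ± 166 and 2534 ± 98.1 CPM; 0.53 ± 0.13, adjusted p = 0.00288). Actn4 had 903, 895 and 1136 CPM in control and 1165, 1334 and 1166 CPM in knockdown libraries (0.32 ± 0.13, adjusted p = 0.0869). The 2 groups are barely apart for Actn4, control replicate 3 being close to the knockdown. It passed with control replicate 3 left out (0.44, adjusted p = 0.0130) and with the shallowest library of each group left out (0.38, adjusted p = 0.0347).

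The integrin-linking pair rose too. Vcl had 280, 296 and 315 CPM in control and 365, 465 and 407 CPM in knockdown libraries (means 297 ± 17.5 and 412 ± 50.6 CPM; 0.47 ± 0.13, adjusted p = 0.0118). Tln1 had 180, 172 and 117 CPM in control and 216, 239 and 244 CPM in knockdown libraries (means 157 ± 34.5 and 233 ± 14.98 CPM; 0.53 ± 0.15, adjusted p = 0.00986). The fewest reads in any footprint library were 83 for Tln1 and 223 for Vcl, both in control replicate 3. The part of depth in these values was not tested. The adjusted p of Vcl was 0.0733 with control replicate 1 left out, and 0.0601 and 0.0697 with knockdown replicate 2 or 3 left out. For Tln1 it was 0.0762 with knockdown replicate 3 left out, and 0.0537 (log2 fold change 0.37) with the shallowest library of each group left out. Without knockdown replicate 3 the count of members that rose was thus 2.

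The remaining members did not pass in footprints. Zyx had 421, 424 and 412 CPM in control and 514, 566 and 473 CPM in knockdown libraries, with no overlap (0.30 ± 0.13, adjusted p = 0.111). Ptk2 had 72.4, 102 and 67.7 CPM in control and 91.6, 92.3 and 109 CPM in knockdown libraries, where the second control library lies among the knockdown (0.23 ± 0.17, adjusted p = 0.398). Pxn had 220, 248 and 271 CPM in control and 227, 259 and 216 CPM in knockdown libraries (-0.08 ± 0.14, adjusted p = 0.761). For the paxillin gene the 2 groups are interleaved, in contrast to its RNA, where they were apart. Lpp had 84.3, 93.0 and 106 CPM in control and 79.1, 92.3 and 78.8 CPM in knockdown libraries (-0.18 ± 0.16, adjusted p = 0.510), so its footprints gave no rise to match the one in RNA.

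**Figure D2:**
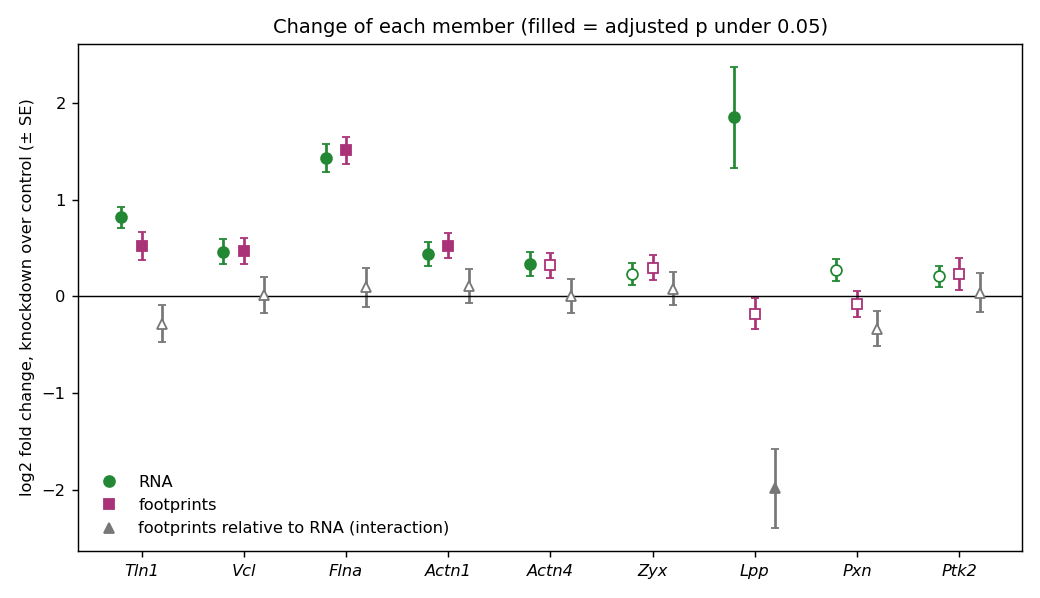
Log2 fold change of knockdown over control with its SE for each member (n = 3 libraries per group and assay) in RNA (circles), in footprints (squares) and for footprints relative to RNA (triangles); filled symbols passed an adjusted p under 0.05. RNA and footprint changes lie together for Flna (1.43 and 1.51) and Vcl (0.46 and 0.47) and apart for Lpp (1.85 and -0.18).

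Whether footprints changed by another amount than RNA was tested as the interaction of assay and knockdown over 12 libraries, a measure of translational efficiency. It passed for 1 member, Lpp (log2 difference -1.99 ± 0.41, adjusted p = 0.0336), whereas 0.203% of 10821 tested genes passed in either direction and 0.0739% in this one. That value compares 544 control and 280 knockdown footprint reads with 29 and 93 RNA reads, and leaving out control RNA replicate 1 gave -1.53 (adjusted p = 0.153). Leaving out knockdown RNA replicate 1 gave -1.85 (0.119) and replicate 3 gave -2.18 (0.0640). Leaving out any single footprint library other than knockdown replicate 2 also ended the call (adjusted p from 0.0526 to 0.120). With the span trend removed it stood at -1.75 (adjusted p = 0.0563). The interactions of the other 8 members lay between -0.34 ± 0.18 (Pxn, adjusted p = 0.462) and 0.10 ± 0.18 (Actn1, adjusted p = 0.870). For Tln1 it was -0.28 ± 0.19 (adjusted p = 0.575) and for Flna 0.09 ± 0.21 (adjusted p = 0.911). With SEs of 0.17 to 0.21 for these 8, differences in efficiency of that size were not detectable at this depth.

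Length cancels in footprint CPM divided by RNA CPM of the same gene only if both count the same stretch, which was not checked. With that limit, this ratio was compared between genes. In control cells it was 0.685 for Ptk2, 1.10 for Zyx, 1.73 for Actn1, 2.11 for Tln1, 2.20 for Flna, 2.32 for Pxn, 2.35 for Actn4 and 6.50 for Vcl, against a median of 1.14 over 8918 genes. Vinculin thus stood at the 98.1st percentile, and its knockdown value of 6.56 differed little. The ratio of Lpp was 166 in control and 41.1 in knockdown cells. Only 5 of the 8918 genes, Lpp included, had a control ratio as high. The Lpp RNA was low in every library while its footprints and its CLIP reads were not, and the cause was not tested. Whether the deposited RNA counts of Lpp are complete could not be checked, so its RNA level, this ratio and its interaction are uncertain.

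Across the 12 libraries, each centred within its assay, the log2 CPM of Flna (r = 0.94), Actn1 (0.92), Vcl (0.91), Zyx (0.87), Actn4 (0.86) and Tln1 (0.84) followed the mean of the other members, and Ptk2 (0.54), Lpp (0.50) and Pxn (0.48) did so less. These correlations describe libraries that share the same 2 groups and carry no test. Among 4168 genes with an average of at least 5 on the log2 CPM scale in both assays, the 5 most like the mean of the members were Ctnnd1 (r = 0.99; p120 catenin of cell junctions), Hspg2 (0.98; the basement membrane proteoglycan perlecan), Plekhg3 (0.98), Ttc3 (0.98) and Mical3 (0.98; an actin-oxidizing enzyme).

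Paralogues of the members were read next, to see whether whole families moved. Of 14 paralogues in the table, 11 were tested in RNA, of which 6 rose and 1 fell (median 0.37), and 10 in footprints, of which 2 rose and 1 fell (median 0.29). In RNA, 54.5% rose and 63.6% changed, beside 22.0% and 43.8% of all tested genes. In footprints, 20% rose and 30% changed, beside 8.76% and 16.1%. Flnc, the filamin best known from muscle, rose by 1.34 ± 0.15 in RNA and 1.88 ± 0.20 in footprints (adjusted p = 3.74e-09). The log2 ratio of Flna to Actn1 counts in the same library was -0.80 ± 0.270 in control and 0.22 ± 0.0272 in knockdown RNA libraries, without overlap, and -0.45 ± 0.153 and 0.55 ± 0.0647 in footprints (SD, n = 3; two-sided exact permutation p = 0.1 for each, the smallest that 3 against 3 can give, 0.15 after Benjamini-Hochberg adjustment over 15 ratios).

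In the zyxin group the members of a family did not move one way. Trip6, a zyxin relative at adhesions, fell from 125 ± 14.7 to 89.1 ± 5.36 CPM in RNA (-0.49 ± 0.11, adjusted p = 0.00233) and from 77.1 ± 2.10 to 49.0 ± 13.2 CPM in footprints (-0.75 ± 0.18, adjusted p = 0.00350, and 0.0882 without knockdown replicate 1). The log2 ratio of Zyx to Trip6 counts went from 1.60 ± 0.133 to 2.32 ± 0.0904 in RNA and from 2.44 ± 0.0403 to 3.43 ± 0.264 in footprints, without overlap (exact permutation p = 0.1 each, the smallest possible). Fblim1, a filamin-binding LIM protein, rose in RNA (0.68 ± 0.14, adjusted p = 0.000989) and stood at 0.51 ± 0.19 in footprints (adjusted p = 0.0631). Limd1 (0.37 ± 0.12, adjusted p = 0.0209) passed in RNA, and Ajuba (0.05) and Wtip (0.04) did not.

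Talin 2 and the focal adhesion kinase relative Ptk2b passed in RNA with smaller or less certain values. Tln2 had 4.68 and 6.89 CPM (0.56 ± 0.21, adjusted p = 0.0375) and Ptk2b 45.7 and 58.7 CPM (0.36 ± 0.11, adjusted p = 0.0154). Removing the span trend gave an adjusted p of 0.272 for Tln2, 0.349 for Ptk2b and 0.0688 for Limd1. With control replicate 1 left out, adjusted p was 0.0703 for Tln2, 0.0864 for Ptk2b and 0.112 for Limd1; with knockdown replicate 1 left out it was 0.117, 0.0828 and 0.0729. Tln2 and Limd1 also failed without knockdown replicate 2 (0.0864 and 0.0539) or 3 (0.0663 and 0.0670), and Tln2 without control replicate 2 (0.116) or with no filter (0.0563). Ctnna1, the vinculin relative alpha-catenin of cell-cell junctions, stood at -0.03 ± 0.12 in RNA and 0.04 ± 0.13 in footprints. The log2 ratio of Vcl to Ctnna1 counts went from -3.32 ± 0.265 to -2.82 ± 0.132 in RNA and from -1.43 ± 0.151 to -1.01 ± 0.167 in footprints, without overlap (exact permutation p = 0.1 each). The paxillin relative Tgfb1i1 had 16 to 40 RNA reads (0.78 ± 0.42, adjusted p = 0.140), and Lpxn, Actn2 and Actn3 had too few to test. Among the 15 count ratios, the groups overlapped for Zyx to Limd1 in both assays and for Tln1 to Tln2 in footprints. They also overlapped for Actn1 to Actn4 and Pxn to Tgfb1i1 in RNA.

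**Figure D3:**
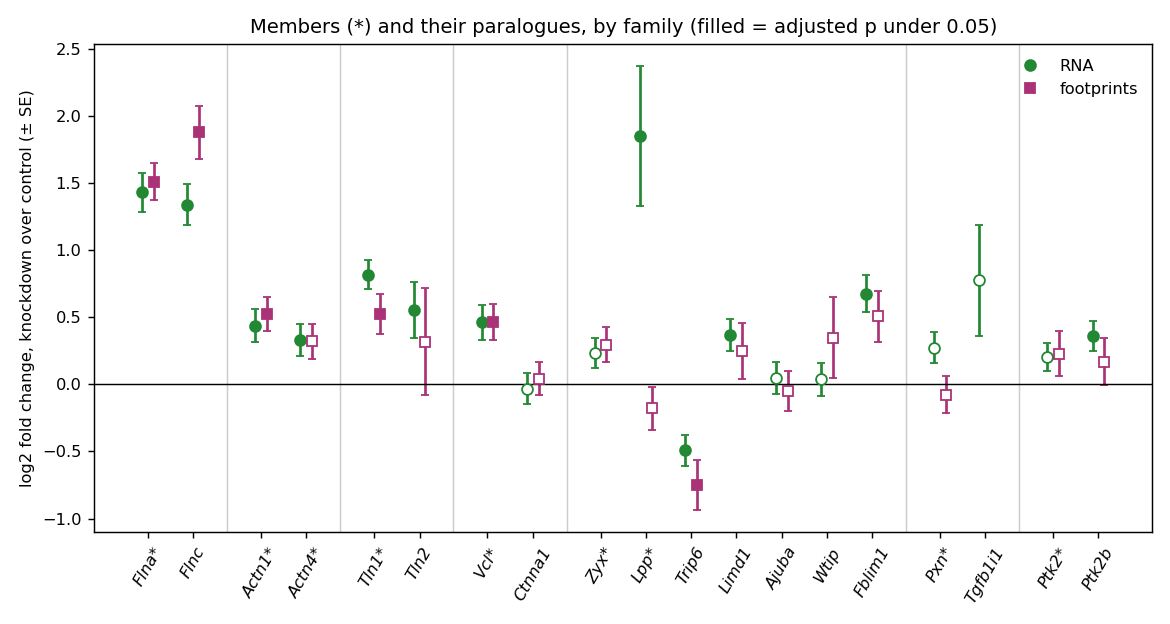
Log2 fold change of knockdown over control with its SE for the members (starred) and tested paralogues, grouped by family, in RNA (circles) and footprints (squares); filled symbols passed an adjusted p under 0.05 (n = 3 libraries per group). Flna and Flnc are above 1.3 in both assays, and Trip6 is the one gene shown that fell.

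Other genes of the adhesion were read from lists of known components, beside the 22.0% of all genes that rose and 43.8% that changed in RNA, and 8.76% and 16.1% in footprints. Of the 36 tested adaptors and scaffolds, 11 rose and 3 fell in RNA (median 0.26; 30.6% rose, 38.9% changed), and of 27 in footprints 7 rose and 1 fell (median 0.05; 25.9% and 29.6%). The share that changed in RNA was thus no higher than over all genes, but the shares that rose were higher in both assays. Fermt2, the kindlin that works with talin on integrins, went from 3.34 to 12.4 CPM (1.90 ± 0.21, adjusted p = 4.30e-06), and the tensin Tns3 rose in RNA (1.07 ± 0.13) and footprints (1.02 ± 0.17). Supervillin (Svil) had the smallest p in footprints (1.15 ± 0.16, adjusted p = 1.57e-06). Among those that fell were the Cas-family adaptor Efs (-2.09 ± 0.42, from 3.33 to 0.848 CPM) and Pdlim7 (-0.30 ± 0.11, adjusted p = 0.0353 in RNA and 0.0302 in footprints). For Pdlim7, adjusted p in RNA was 0.105 with control replicate 1 left out, and 0.166 and 0.0976 with knockdown replicate 1 or 3 left out; in footprints it was 0.146, 0.163 and 0.101 for the same replicate numbers. Its RNA call also ended with upper-quartile factors (0.0595) and the replicate block (0.0945), and its footprint call with DESeq2 (0.100) and without the shallowest library of each group (0.0567).

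Integrin subunits, the receptors to which talin binds, were mostly higher: of 13 tested, 10 rose and 2 fell in RNA (median 0.74; 92.3% changed), and of 10 in footprints 7 rose and 1 fell (median 0.57). Itga3, which pairs with beta 1 to bind laminin, went from 543 ± 60.6 to 986 ± 20.5 CPM in RNA (0.86 ± 0.12), and Itga2 footprints from 30.5 ± 11.5 to 184 ± 30.8 CPM. Itgb6 rose in footprints (0.71 ± 0.14). The beta subunits Itgb7 (-0.76 ± 0.11) and Itgb5 (-0.40 ± 0.11) fell in RNA. The footprint call of Itgb7 (-0.53 ± 0.16, adjusted p = 0.0197) ended with control replicate 1 left out (0.112), knockdown replicate 1 left out (0.252) or DESeq2 (0.0811).

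Kinases, phosphatases and GTPase regulators of adhesion were near the background, with 6 of 26 up and 3 down in RNA (median 0.05; 23.1% rose, 34.6% changed) and 2 of 25 up and 1 down in footprints (median 0.17). The Arf GTPase-activating proteins Asap1 (0.71 ± 0.11 in RNA, 0.63 ± 0.18 in footprints) and Asap2 (0.78 ± 0.19 in footprints) rose, as did the paxillin-binding Git1 in RNA (0.64 ± 0.10). The kinase Fyn (-0.82 ± 0.16) and the GTPase Rhoa (-0.52 ± 0.12) fell in RNA, and the receptor phosphatase Ptprf in footprints (-0.60 ± 0.13). Without knockdown replicate 1, Asap1 footprints did not pass (adjusted p = 0.0993), nor with DESeq2 (0.0641), and without knockdown replicate 3, Asap2 did not (0.0534).

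Of the actin and myosin genes of stress fibres, 7 of 27 rose and 2 fell in RNA (median 0.09; 25.9% rose, 33.3% changed, near or below the shares over all genes), and 8 of 27 rose and 0 fell in footprints (median 0.18; 29.6% rose). That footprint share was above the 8.76% over all genes. Non-muscle myosin Myh10 rose in RNA (0.69 ± 0.13) and footprints (0.89 ± 0.14), Myh9 in footprints (0.67 ± 0.13, from 1603 ± 167 to 2552 ± 120 CPM) and the actin-binding Synpo in RNA (1.02 ± 0.20). Myh14, another non-muscle myosin, fell in RNA (-0.78 ± 0.11). Tagln2 (-0.34 ± 0.13, adjusted p = 0.0384) lost its call without any single RNA library other than control replicate 3 (adjusted p from 0.0566 to 0.147) with the span trend removed (0.0958) and with upper-quartile factors (0.0559). Of SRF, its cofactors and targets, 6 of 24 rose and 2 fell in RNA (median 0.17; 33.3% changed, below the share over all genes) and 7 of 23 rose and 2 fell in footprints (median 0.19; 39.1% changed, above the 16.1% over all genes). This list shares genes with that of stress fibres, Myh9 and Actb among them. Ctgf rose in RNA (1.25 ± 0.11) and Cyr61 in footprints (1.29 ± 0.17), secreted matricellular proteins that are also YAP targets, and Fhl1 fell (-1.14 ± 0.20 in RNA; -0.94 ± 0.26 in footprints, where adjusted p was 0.0971 with control replicate 1 left out, and 0.0506 and 0.0946 with knockdown replicate 1 or 3 left out, and 0.0785 with DESeq2).

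Msi2 binding was read from the CLIP regions that the authors assigned to 3' UTRs. Of the 9 members, 5 had at least 1 such region (Lpp, Vcl, Actn4, Flna and Actn1) and Tln1, Zyx, Pxn and Ptk2 had 0. Among genes tested in footprints 12.6% had one, and 29.6% did among the 2319 with footprints at least as abundant as the lowest member. The 18 regions of the members had a median height of 16 reads, the same as the 2671 regions of the whole list; height is the authors' own total peak height over the 5 libraries, and every listed region reaches 10.

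Lpp had the most, with 6 regions, as many or more than which 88 of 1199 listed genes (7.34%) had. They lie on the plus strand between 24983466 and 24986142 of chromosome 16, with heights of 10 to 28, and their summits are 6526 to 9062 bases upstream of the annotated 3' end of the gene. The CLIP libraries, from undiluted RNase to the 75-fold dilution, held 2, 18, 18, 33 and 27 reads in them. Reads were thus found in each library, although Lpp was scarcely seen in the RNA libraries.

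Vcl had 5 regions, all within 1944 bases of its 3' end, between 21031732 and 21033674 of chromosome 14. The highest (height 47) covers 398 bases from 21033034 to 21033431, with 0, 24, 8, 6 and 9 reads by library. Summed over the regions of Vcl, the low molecular weight library at 20-fold dilution gave the most reads, 47 of 136. The others gave 1, 32, 26 and 30. Actn4 had 4 regions within 602 bases of its 3' end. The highest region of any member, with a height of 55 (93.1st percentile of the list), lies there at chromosome 7, 28893546 to 28893714, minus strand, and held 0, 19, 49, 10 and 16 reads. Summed over its regions, Actn4 had 0, 28, 69, 42 and 42 reads, with the high molecular weight library at 20-fold dilution on top. The undiluted library stood at 0. The upper limit that a count of 0 allows is 3 of that library's 6608 reads in all listed regions (counting error only). A read overlapping neighbouring regions of Vcl or Actn4 may be counted in each, so these sums may exceed the number of reads.

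Actn1 had 1 region, of height 41, at chromosome 12, 80167711 to 80168004 (minus strand), 169 to 462 bases from the 3' end, with 5, 7, 7, 14 and 8 reads. Flna had 2 regions of height 12 and 17 (list median 16), the first at the very 3' end, with 3, 4, 9, 8 and 5 reads together. At 29 reads, Flna had the fewest in 3' UTR regions among the 5 that had any, and its regions outside that list are given below.

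**Figure D4:**
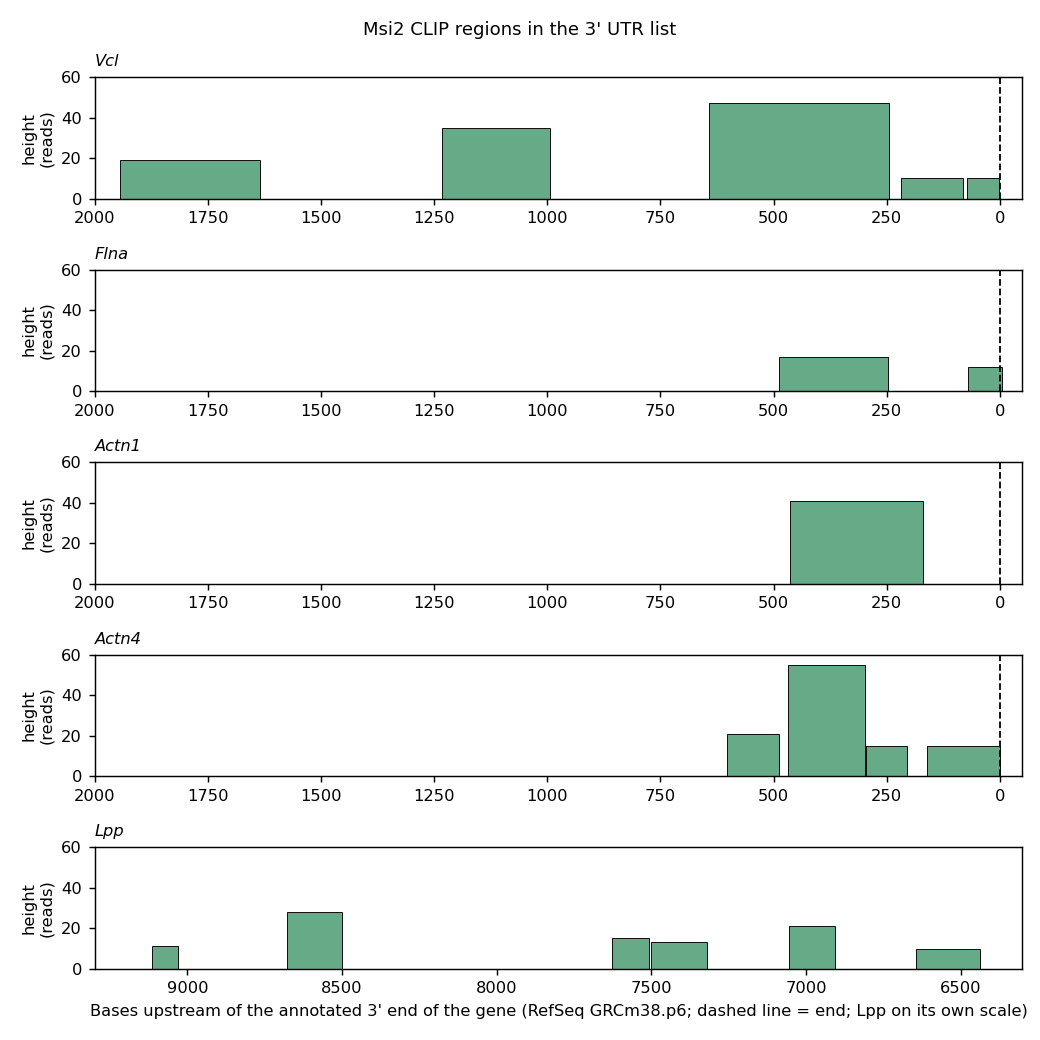
Msi2 CLIP regions of the 5 members in the 3' UTR list, drawn by distance in bases from the annotated 3' end of the gene (dashed line at 0; Lpp has its own scale) and by height in reads over 5 libraries. Regions of Vcl, Flna, Actn1 and Actn4 lie within 1944 bases of the end and those of Lpp 6436 to 9112 bases from it.

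Outside the 3' UTR list, further regions of the full list of 4051 lie within the annotated spans. Flna had 8 on its strand, with heights of 10 to 21, spread from 7972 to 24716 bases after the gene's start, and Actn1 had 4, with heights of 10 to 18. Zyx had 1 (chromosome 6, 42351474 to 42351580, height 14), and Ptk2 had 1 of only 24 bases (chromosome 15, 73254817 to 73254840, minus strand, height 16). Tln1, Pxn, Vcl, Actn4 and Lpp had none there. With these counted, 7 of the 9 members held a region in either list. Whether these regions lie in exons or introns was not determined, since the annotation used gives gene spans only.

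The members with and without a 3' UTR region are set side by side as they were measured. With a region, Flna, Actn1 and Vcl rose in RNA and footprints, Actn4 passed in RNA and not in footprints at values that hardly differ (0.33 and 0.32), and Lpp rose in RNA on few reads with footprints at -0.18. Without one, Tln1 rose in both assays, and Zyx, Pxn and Ptk2 passed in neither. Of all listed 3' UTR genes that were tested, 30.1% rose in RNA and 16.6% in footprints, beside 22.0% and 8.76% of all tested genes. Among genes as abundant as the members, 21.0% rose in RNA, with Lpp left out in setting that limit, and 16.1% rose in footprints. With 9 members, no test of a link between region and change was made.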

How the data were processed

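The RNA and footprint tables hold deposited counts of alignments to coding sequences, 1 row per gene. The submitters' processing notes name TopHat, HTSeq, DESeq and mm10, without versions. In the deposited peak lists, the signal is the total peak height and the counts are reads of each library overlapping a region. For CLIP the same notes name cutadapt, Novoalign and mm10, and the peak caller is not given in the sources used here. RNA reads assigned to no gene (32.3 to 35.2% of a library), ambiguous (0.175 to 0.228%) or aligned to several places (13.4 to 24.5%) were left out of library sizes and tests; the RNA kit is directional but the strand setting of the counting is not stated.

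The tests used edgeR 4.0.16 under R 4.3.3 (filterByExpr, minimum count 10 and total 15; TMM factors; robust quasi-likelihood F test by group; Benjamini-Hochberg adjustment over all tested genes; threshold 0.05). RNA and footprints were fitted apart, and translational efficiency was the interaction over all 12 libraries. Fold changes are log2, knockdown over control. Ratios of counts of 2 genes were compared with exact permutation tests. The tests were tested on simulated data with known changes. Alternatives were DESeq2 1.42.0, upper-quartile factors, limma-voom (limma 3.58.1), no filter, a replicate block, each library left out, removal of the trend with RefSeq gene span (loess, span 0.5), and stricter heights; leaving out the shallowest footprint libraries in the interaction was added after seeing the data.

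The members, lists and tests were chosen with earlier results of these data known. Named genes are the members, Msi2, the measured paralogues, in each list and assay the 2 called genes with the smallest p in each direction, and the 5 genes whose profile is most like the members' mean; 1 gene that this rule names is not reported here. Replicates differed beyond counting noise in every pair (chi-square per degree of freedom 1.63 to 30.3), so none were merged. Protein sequences and coding lengths were not used here, so levels per length and a correction for coding length were not computed. Counting intervals and floors cover counting error only.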

Additional observations from a re-analysis of the deposited data

Results flagged for a closer look

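The difference between the footprint and the RNA change of Lpp passed the interaction test, at -1.99 on the log2 scale. Its RNA rested on 2 to 47 reads per library and its footprints on 46 to 277.

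In the 5 CLIP libraries, the reads of Flna and Actn1 in 3' UTR regions, per 10000 reads in listed regions, each had 1 library far from the others, the one with undiluted RNase, at 4.54 for Flna and 7.57 for Actn1. The gap to the nearest library made up 0.760 of the range for Flna and 0.855 for Actn1, above the 0.71 that marks an outlier among 5 values. The other libraries lay between 0.894 and 1.77 for Flna and between 1.38 and 2.27 for Actn1. That library holds 6608 reads in listed regions, the fewest of the 5, and the values rest on 3 and 5 reads. Of 5 genes examined, chance flags about 1 in 20.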

How the results depend on the processing

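The number of members called was within 1.5 times of the reported one in every alternative for RNA (4 to 8). For footprints it was 2 to 5 when single libraries were left out and 4 or 5 otherwise. The interaction call of Lpp ended with the replicate block within assay, the span trend removed or the shallowest footprint libraries left out (0 members each), and the count was 0 to 1 with single libraries left out. Over all genes, 3548 to 5486 were called in RNA, 842 to 1634 in footprints and 0 to 243 in the interaction with single libraries left out. DESeq2 called 854 genes in footprints instead of 1448. In the interaction, 22 genes were called (14 up), against 99 with DESeq2, 86 with limma-voom (68 up, 18 down), 124 with no filter (46 up, 78 down), 35 with the span trend removed (27 up, 8 down), 13 without the shallowest libraries, 3 with the replicate block within assay and 18 with upper-quartile factors (5 up, 13 down); the causes were not tested. At a height of at least 50, 1 member kept a 3' UTR region (Actn4).

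Interactions near 0 changed sign without passing any test. Vcl was -0.031 without the shallowest libraries and with DESeq2, and -0.047 with upper-quartile factors and with no filter. Ptk2 was -0.014, -0.012, -0.029 and -0.029 in the same order. Actn4 was -0.045 with DESeq2, -0.059 with upper-quartile factors and -0.058 with no filter. With single libraries left out, they ran from -0.15 to 0.086 (Vcl), -0.076 to 0.29 (Ptk2), -0.14 to 0.099 (Actn4), -0.17 to 0.23 (Flna), -0.016 to 0.16 (Actn1) and -0.013 to 0.13 (Zyx). The RNA change of Ptk2 was -0.052 with the span trend removed.

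Deviations of same-numbered libraries correlated at 0.06, -0.28 and -0.23 in RNA and 0.05, 0.03 and -0.0025 in footprints. In RNA, control replicate 2 correlated with knockdown replicate 3 at 0.24, and control replicate 3 with knockdown replicate 2 at 0.31. These values cannot decide whether libraries were paired, because deviations within a group depend on one another. With the replicate block, 5 members were called in RNA, Actn4 being lost (adjusted p = 0.0995), and 4 in footprints. The correction for coding length was not run.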
